A study of Rattus norvegicus with 35 samples.

Results

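A set of 10 genes of glutathione conjugation were followed in cultured neonatal rat ventricular myocytes under cyclic mechanical stretch. They are the cytosolic transferases Gsta4, Gstm1, Gstm2, Gstp1, Gstt1, Gstt2 and Gsto1 and the membrane-bound Mgst1, Mgst2 and Mgst3. They were chosen by name, as members of 1 enzyme family, and were 10 of the 14217 genes that the array annotation names, read by 11 of 31042 probe sets. A gene is given by the brightest probe set annotated to it alone. Only Gstt2 had a second one. Myocytes were isolated from 2- to 4-day-old Sprague-Dawley rats, enriched by pre-plating, kept on flexible collagen-coated plates and stretched cyclically. RNA was measured on 35 Affymetrix arrays in 2 sets, 7 groups of 5 biological replicates. Set I held myocytes stretched for 1, 4 and 12 h and their unstretched control, and set II held myocytes stretched for 24 and 48 h with an unstretched control of its own. Stretch was the only treatment, and its start was staggered so that all groups of a culture ended together.

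Glutathione transferases join the tripeptide glutathione to reactive, electron-poor molecules such as the aldehydes left by lipid peroxidation, which makes these soluble and ready for export. The cytosolic enzymes fall into classes named by Greek letters, and the microsomal ones sit in membranes, where some also make lipid mediators. Several are textbook targets of Nrf2, the transcription factor that answers oxidative and electrophilic stress by binding, with a small Maf partner, to antioxidant response elements.

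The stretch of DNA before the start of Gstp1, Gstm1 and Gstm2 is shown because Gstp1 rose with stretch, Gstm2 fell, and the neighbouring Gstm1 did both at different times. Promoters were taken from RefSeq (GRCr8), and 7 of the 10 genes were matched. Mgst2, Gstt1 and Gstt2 had no entry among the promoters used here, so theirs were not searched. The capitals mark the bases that match the antioxidant response element core TGACNNNGC, and each line gives the 250 bases before the start site, 5′ to 3′ in the direction of the gene, on the minus strand.
Gstp1, chr1:210769706-210769955: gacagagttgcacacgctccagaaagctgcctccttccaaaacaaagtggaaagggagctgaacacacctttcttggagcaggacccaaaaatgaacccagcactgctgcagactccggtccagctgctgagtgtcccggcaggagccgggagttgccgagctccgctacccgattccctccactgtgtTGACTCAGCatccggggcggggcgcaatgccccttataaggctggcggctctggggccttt
Gstm1, chr2:198343384-198343633: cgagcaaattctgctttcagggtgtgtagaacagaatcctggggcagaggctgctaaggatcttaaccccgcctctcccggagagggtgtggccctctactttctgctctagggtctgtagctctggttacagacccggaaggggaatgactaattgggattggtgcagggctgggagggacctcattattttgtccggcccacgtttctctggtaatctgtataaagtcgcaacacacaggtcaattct
Gstm2, chr2:198316918-198317167: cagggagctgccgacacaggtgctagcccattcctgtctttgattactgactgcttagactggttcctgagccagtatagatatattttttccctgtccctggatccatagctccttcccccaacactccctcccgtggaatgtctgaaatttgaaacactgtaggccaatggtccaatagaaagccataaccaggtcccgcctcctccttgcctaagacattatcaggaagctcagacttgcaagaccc
Searched on both strands of windows of 250 bases before and 50 after the start, TGACNNNGC was in 12.1% of 33469 promoters and, among the 7 entries, in that of Gstp1 alone, at positions -61 to -53 from the start. The AP-1 motif TGACTCA was in 4.63% of the promoters. It was present in Gstp1, where it overlaps the first match, and on the opposite strand of Gsto1, 24 to 30 bases after the start. Such a match describes letters only. The Gstm1 and Gstm2 windows held neither motif, and their printed bases were identical at 58.4% of aligned positions. Both genes lie on chromosome 2 with 0 protein-coding genes between them, and Gstt1 and Gstt2 lie on chromosome 20.

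The arrays were alike within groups, with pairwise correlations between 0.9898 and 0.9983 over all probe sets. The summed intensities of myocyte markers were 17.07 to 17.32 on the log2 scale over the 35 arrays. At 12 h they were 17.17 to 17.21, against 17.26 to 17.32 in control. At 48 h they were 17.07 to 17.15, against 17.23 to 17.28 in control. Replicate 1 of the 24 h group lay near the unstretched arrays in Gstm1, Gstm2, Gstt1, Gstt2 and Gsto1. Over all probe sets it correlated with its own group at a mean of 0.9942, and with the control of set II at 0.9929. The other 24 h arrays correlated with that control at 0.9875 to 0.9927. Results at 24 h are given with and without replicate 1. It was singled out by its values in these genes, so its removal had to enlarge their differences, and values without it are a description only. Different genes' probe sets have different brightness, so levels are compared only within a gene, and only within a set.

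After 1 h of stretch, 1 of the 10 genes was higher and 5 were lower past an adjusted p of 0.05, where 6.32% of all probe sets were higher and 7.52% lower (13.8% in either direction). The p-values are limma's, with the Benjamini-Hochberg adjustment taken across the 31042 probe sets. After 4 h, 2 genes were higher and 5 lower (14.2% and 15.2% of all probe sets, 29.4% together). After 12 h the balance turned, with 4 genes higher and 1 lower (16.3% and 16.9%, 33.2% together). In set II, 3 were higher and 1 lower after 24 h (9.14% and 9.13%, 18.3% together), and after 48 h 4 were higher and 6 lower (16.9% and 16.0%, 32.9% together), so that all 10 passed. With each array centred on its median, 6 passed at 48 h (4 higher, 2 lower), and 4 of the 6 lower genes no longer did.

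These shares need the brightness of the probe sets beside them. All 10 main probe sets were brighter than the median probe set, and among probe sets of that kind alone the test called 28.0% after 1 h, 52.8% after 4 h, 56.8% after 12 h, 33.2% after 24 h and 51.7% after 48 h. The median log2 fold change of the 10 genes was -0.12, -0.17, 0.11, 0.03 and -0.24 in order of time, beside medians within 0.03 of 0 over all probe sets. Changes of at least 1.5-fold past the test were few. There were 0 such genes after 1 h (1.31% of all probe sets) and after 4 h (3.07%). Mgst2 and Gstp1 passed after 12 h (4.23%), Mgst2 after 24 h (2.91%), and Mgst2 and Gstm2 after 48 h (7.46%). The 5 stretched and 5 control arrays did not overlap in 3 genes after 1 h (13.9% of all probe sets), in 6 after 4 h (20.7%), in 4 after 12 h (27.9%), in 3 after 24 h (13.4%) and in 9 after 48 h (24.4%). Since the times of a set share 1 control, their counts are not independent.

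Markers of other cells in the cultures were also called. Beside them, the test called 32.9% of all probe sets at 48 h (16.9% higher, 16.0% lower) and 33.2% at 12 h (16.3% higher, 16.9% lower). Among probe sets brighter than the median it called 51.7% and 56.8%. At 48 h endothelial markers were lower in 6 of 7 measured genes and higher in 0, with a summed log2 intensity of 11.02 to 11.13 in stretched myocytes, against 11.55 to 11.94 in control. Macrophage markers were lower in 6 of 8 and higher in 0 (10.31 to 10.45 in stretched myocytes, against 10.82 to 10.96 in control). Smooth muscle and pericyte markers were higher in 4 of 7 and lower in 1 (12.49 to 12.64 in stretched myocytes, against 11.63 to 12.15 in control). Myocyte markers were lower in 8 of 14 and higher in 1, and fibroblast markers lower in 7 of 12 and higher in 1. At 12 h, with 0 higher in these lists, myocyte markers were lower in 8 of 14, fibroblast markers in 7 of 12, endothelial markers in 5 of 7 and macrophage markers in 1 of 8. The called shares of myocyte and fibroblast markers at 12 h were near that of brighter probe sets in either direction, but all of these marker calls were lower. Mesothelial and epicardial markers were lower in 3 of 4 and higher in 1, and smooth muscle and pericyte markers were lower in 1 of 7 and higher in 1. Normalized intensities hold no 0, so no marker could be called absent. The part of these cells in the changes of the transferase genes was not tested, and fewer cells of a type cannot be told from less RNA per cell.

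**Figure D1:**
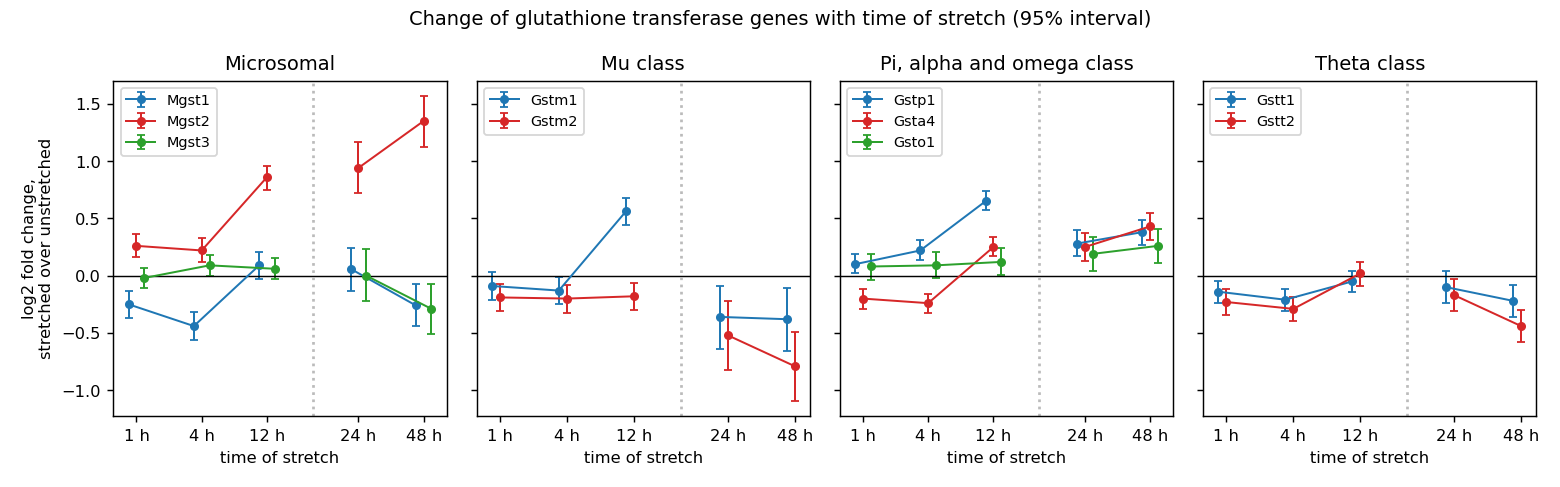
Log2 fold change of stretched over unstretched myocytes (y axis) by time of stretch (x axis) for the 10 genes, grouped by enzyme class; bars are 95% intervals and the dotted line separates set I from set II. Mgst2 lies at 0.86 at 12 h and 1.35 at 48 h, and Gstm1 at 0.56 at 12 h and -0.38 at 48 h.

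Mgst2, a membrane enzyme that can conjugate glutathione to the leukotriene precursor leukotriene A4, was higher at every time. After 12 h it measured 10.43, 10.47, 10.42, 10.46 and 10.46 log2 units in stretched myocytes, against 9.56, 9.55, 9.48, 9.62 and 9.73 in their control. After 48 h the values were 10.13, 10.004, 10.318, 10.157 and 9.872 in stretched myocytes, against 8.72, 8.82, 8.57, 8.91 and 8.71 in theirs. No stretched array overlapped the control at either time. The fold change was 1.81 after 12 h (log2 0.86, adjusted p = 6.79e-11) and, after 48 h, 2.54 (log2 1.35 ± 0.11 SE, adjusted p = 9.8e-08). After 24 h the 5 stretched arrays spanned 9.46 to 10.01, all above the control of set II, a 1.92-fold rise (adjusted p = 2.84e-05, and 1.91e-05 without replicate 1). The early change was small, 0.26 log2 units at 1 h (adjusted p = 0.00101), and 0.22 after 4 h (adjusted p = 0.00153). Mgst2 rose further by 0.63 between 4 and 12 h (adjusted p = 3.32e-08) and by 0.41 between 24 and 48 h (adjusted p = 0.031).

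Gstp1, the pi-class enzyme, was the other gene past 1.5-fold in set I. After 12 h it measured 13.53, 13.63, 13.57, 13.56 and 13.56 log2 units in stretched myocytes, against 12.91, 12.96, 12.84, 12.86 and 13.02 in their control, with a clear gap between the groups. That was a 1.57-fold rise (log2 0.65, adjusted p = 2.36e-10). It had already risen by 0.22 after 4 h (adjusted p = 0.000258), while at 1 h the difference of 0.10 did not pass the test (adjusted p = 0.104). It did pass in 5 other settings, with adjusted p between 0.022 with a variance trend and 0.0436 with ordinary one-way analysis of variance. In set II Gstp1 read 13.47, 13.42, 13.34, 13.28 and 13.32 at 24 h and 13.42, 13.50, 13.52, 13.37 and 13.51 at 48 h, against 13.16, 13.15, 13.01, 13.08 and 13.02 in the control. All 10 stretched arrays lay above the 5 controls, by 1.22-fold at 24 h (adjusted p = 0.0012, and 0.00302 without replicate 1), and 1.30-fold after 48 h (adjusted p = 2.99e-05).

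Gsta4, the alpha-class enzyme that clears 4-hydroxynonenal, an aldehyde of lipid peroxidation, turned from lower to higher. It fell by 0.20 log2 units at 1 h (adjusted p = 0.00163) and by 0.24 after 4 h (adjusted p = 0.000101). At 12 h it stood above the control, at 11.90, 11.91, 11.92, 11.83 and 11.90 in stretched myocytes, against 11.68, 11.67, 11.60, 11.63 and 11.62 in control, with no overlap (log2 0.25, adjusted p = 4.76e-05). The change between 4 and 12 h was 0.49 (adjusted p = 6.22e-08). Gsta4 stayed higher at 24 h (0.25 ± 0.056 SE, adjusted p = 0.00442, and 0.00771 without replicate 1) and at 48 h (0.43, 1.35-fold, adjusted p = 1.71e-05). One further probe set is annotated to more than 1 alpha-class gene, so it names none of them. It showed larger values, 4.90-fold at 12 h (adjusted p = 3.54e-12), and 4.42-fold after 48 h (adjusted p = 5.52e-09).

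The pair of mu-class genes, whose products are close relatives, differed in direction at 12 h. Gstm1 read 8.91, 9.13, 9.12, 9.08 and 9.16 log2 units in myocytes stretched for 12 h, against 8.56, 8.66, 8.53, 8.37 and 8.49 in their control, a 1.47-fold rise without overlap (log2 0.56, adjusted p = 2.12e-07). Gstm2, whose human counterpart is known as a muscle enzyme that binds the cardiac ryanodine receptor, read 8.85, 8.94, 8.86, 8.89 and 8.98 in the same stretched arrays, against 9.194, 9.131, 8.957, 9.005 and 9.132 in control (log2 -0.18, adjusted p = 0.0218). The groups overlapped here, and the call was lost with each array centred on its median (adjusted p = 0.0564). Earlier, Gstm1 differed by -0.09 at 1 h and -0.13 at 4 h without passing the test, whereas Gstm2 fell by 0.19 at 1 h (adjusted p = 0.0302, and 0.0647 with array centring), and by 0.20 after 4 h (adjusted p = 0.0104).

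After 48 h both mu-class genes were lower. Gstm2 measured 8.46, 8.81, 8.54, 8.53 and 8.63 in stretched myocytes, against 9.47, 9.45, 9.47, 9.21 and 9.33 in control, so every stretched array lay below every control. Its level fell to 0.578 of control (log2 -0.79, adjusted p = 0.000339). Gstm1 measured 9.12, 9.42, 9.38, 9.26 and 9.47 in stretched myocytes, against 9.82, 9.69, 9.72, 9.72 and 9.61 in control, again without overlap (log2 -0.38, adjusted p = 0.0313). The adjusted p of Gstm1 was 0.0521 after median centring of the arrays and 0.0608 with ordinary one-way analysis of variance. At 24 h the stretched arrays of Gstm2 read 9.49, 8.69, 8.96, 8.44 and 8.75, and the first of these, replicate 1, lay among the controls. The change was -0.52 (adjusted p = 0.0163), and -0.68 without that replicate (adjusted p = 0.000172). Gstm1 at 24 h read 9.92, 9.21, 9.46, 9.03 and 9.12. Its difference of -0.36 did not pass in the main fit (adjusted p = 0.0621). With all arrays kept it passed in other settings, at adjusted p between 0.00727 (array weights) and 0.0446 (probe sets below the median brightness left out). Without replicate 1 the difference was -0.51 (adjusted p = 0.000798). The probe sets' specificity among mu-class relatives was not tested.

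**Figure D2:**
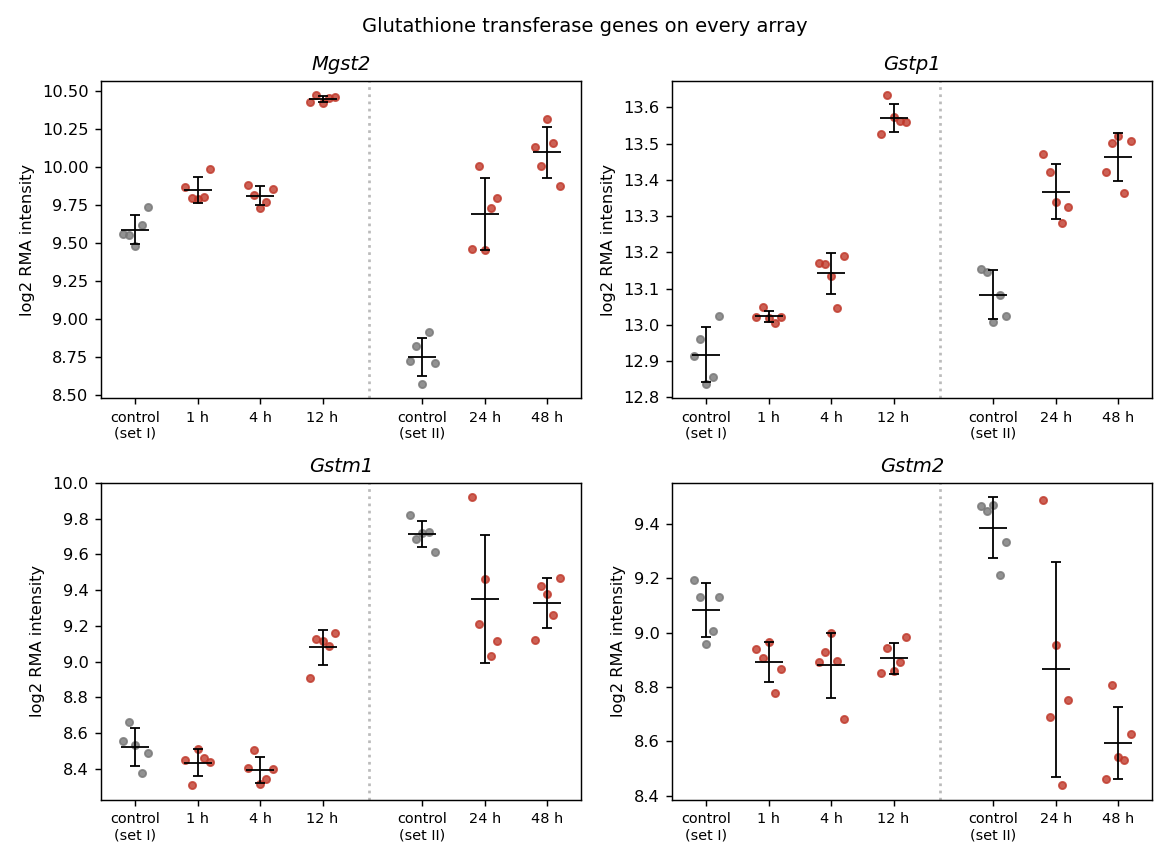
Log2 intensity (y axis) of Mgst2, Gstp1, Gstm1 and Gstm2 on each of the 35 arrays, by group (x axis, unstretched arrays grey, stretched arrays red), with group mean and SD in black (n = 5). One 24 h array reads 9.92 in Gstm1 and 9.49 in Gstm2, at the level of the controls of set II, and the 12 h arrays of Mgst2 lie within 10.42 to 10.47.

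Mgst1, a glutathione transferase and peroxidase of the endoplasmic reticulum and outer mitochondrial membrane, dipped early. After 4 h it read 11.50, 11.36, 11.29, 11.43 and 11.33 log2 units in stretched myocytes, against 11.87, 11.84, 11.74, 11.77 and 11.91 in control, without overlap. It fell by 0.25 at 1 h (adjusted p = 0.00456), and by 0.44 after 4 h (adjusted p = 4.18e-06), and was 0.53 higher at 12 h than at 4 h (adjusted p = 2.11e-06). At 12 h it did not pass against control (0.09, adjusted p = 0.249). At 24 h it differed by 0.06 (adjusted p = 0.724), and by -0.02 without replicate 1 (adjusted p = 0.923). It fell by 0.26 at 48 h (adjusted p = 0.0322), a call lost with array centring (adjusted p = 0.0721) and with ordinary one-way analysis of variance (adjusted p = 0.0507). In the related Mgst3 all 5 stretched arrays lay above every control at 4 h, but the difference of 0.09 did not pass (adjusted p = 0.12). It passed there with array centring (adjusted p = 0.0477) and with a variance trend (adjusted p = 0.0481). In the main fit Mgst3 passed the test only at 48 h, with a median of 10.90 in stretched myocytes and of 11.29 in control. One control array, at 10.79, lay inside the stretched range, and the call (-0.29, adjusted p = 0.0441) was also lost with array centring (adjusted p = 0.0662) and analysis of variance (adjusted p = 0.0733). At 24 h Mgst3 differed by 0.00 (adjusted p = 0.991), and by 0.03 without replicate 1 (adjusted p = 0.917).

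Both theta-class genes were lower after 1, 4 and 48 h. Gstt2 fell by 0.23 at 1 h (adjusted p = 0.00354), and by 0.29 after 4 h (adjusted p = 0.000152), stood at 0.02 at 12 h (adjusted p = 0.866), and fell by 0.44 at 48 h (adjusted p = 6.61e-05), where the stretched arrays spanned 7.57 to 7.87, against 8.14 to 8.27 in control. Its second, dimmer probe set passed the test at 0 of the 5 times. Gstt1, which acts on small halogenated compounds, fell by 0.14 at 1 h (adjusted p = 0.0395), by 0.21 at 4 h (adjusted p = 0.00101), and by 0.22 after 48 h (adjusted p = 0.0152). The Gstt1 calls at 1 and 48 h were lost with array centring (adjusted p = 0.132 and 0.0529). At 24 h Gstt1 differed by -0.10 (adjusted p = 0.362), and by -0.16 without replicate 1 (adjusted p = 0.0528). Gstt2 differed by -0.17 (adjusted p = 0.0819), and by -0.22 without it (adjusted p = 0.0226). With all arrays kept, Gstt2 passed with array weights, at -0.21 (adjusted p = 0.0186).

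Gsto1, an omega-class enzyme that also reduces dehydroascorbate, passed the test at 0 of the 3 times of set I, with log2 differences of 0.08 to 0.12. At 12 h (adjusted p = 0.0876) it passed in 5 other settings, with adjusted p between 0.0315 with array weights and 0.0469 with a variance trend. It was higher at 48 h, with stretched arrays at 10.85 to 10.97, against 10.55 to 10.78 in control (0.26, 1.2-fold, adjusted p = 0.0094). At 24 h its difference of 0.19 did not pass in the main fit (adjusted p = 0.0723). With all arrays kept it passed in other settings, at adjusted p between 0.0166 (array weights) and 0.0488 (1 probe set per gene). Replicate 1 lay among the controls here, and without it the difference was 0.26 (adjusted p = 0.0062). Without that replicate 7 genes passed at 24 h, in place of 4, while the share of all probe sets called was 18.2%, beside 18.3% with all arrays.

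**Figure D3:**
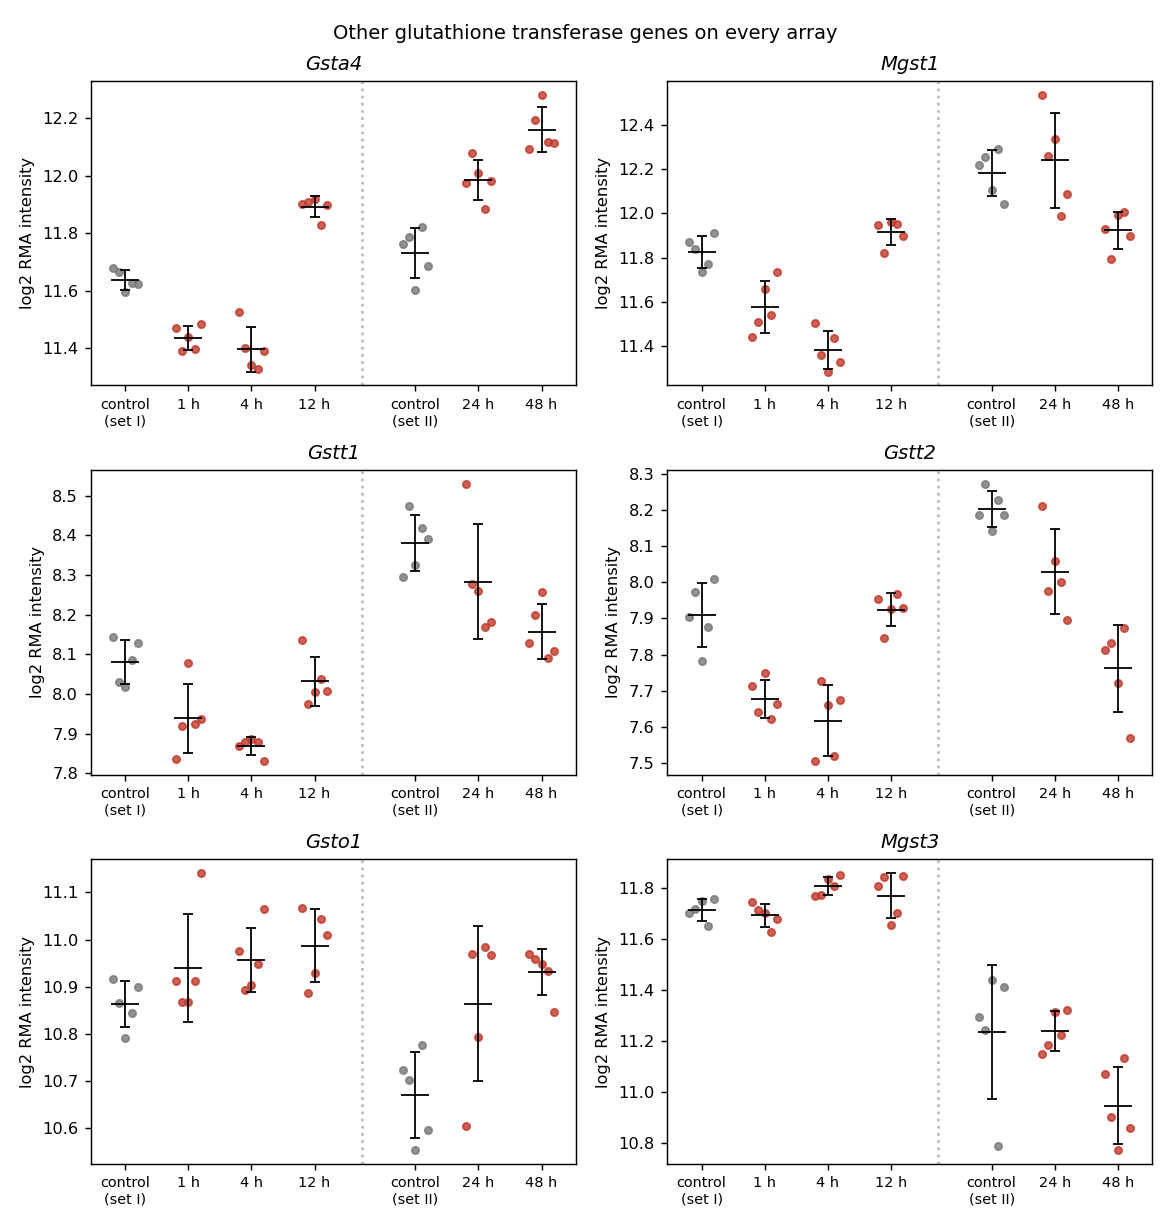
Log2 intensity (y axis) of Gsta4, Mgst1, Gstt1, Gstt2, Gsto1 and Mgst3 on each of the 35 arrays, by group (x axis, unstretched grey, stretched red), with group mean and SD in black (n = 5). Mgst1 dips at 4 h, where no array exceeds 11.50, and Gsta4 lies above its controls from 12 h on.

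Between 4 and 12 h 7 of the 10 genes rose and 0 fell, where 4.25% of all probe sets rose and 5.13% fell (9.38% together). Among probe sets brighter than the median the share called was 21.6%. The genes that did not pass were Gstm2, Mgst3 and Gsto1. Between 1 and 4 h Mgst1 alone passed, at -0.20 (adjusted p = 0.0255, with 13.3% of probe sets called). The count was 0 without 1 h replicate 3 or 5 or 4 h replicate 3 or 5, and 3 (2 higher, 1 lower) in 4 other settings. Between 24 and 48 h Mgst2 rose, and Mgst1 (-0.32, adjusted p = 0.0419) and Gstt2 (-0.27, adjusted p = 0.0229) fell, with 6.11% of probe sets called. Here the count was 0 without replicate 1 or replicate 3 of the 24 h group, or without replicate 3 of the 48 h group.

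The effect of 48 h of stretch, each time taken against its own control, was then set against that of 12 h in 1 fit of all 35 arrays. It differed in 7 of the 10 genes, with 15.5% of all probe sets called, and 29.7% of those brighter than the median. The 48 h effect was lower in Gstm1 by 0.94 log2 units (adjusted p = 1.06e-05), in Gstm2 by 0.61, in Gstt2 by 0.46, in Mgst1 by 0.35, in Mgst3 by 0.34 and in Gstp1 by 0.27, and it was higher in Mgst2 by 0.49 (adjusted p = 0.00279). Gsta4, Gsto1 and Gstt1 did not pass this test. Time of stretch and set cannot be told apart in this comparison.

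**Figure D4:**
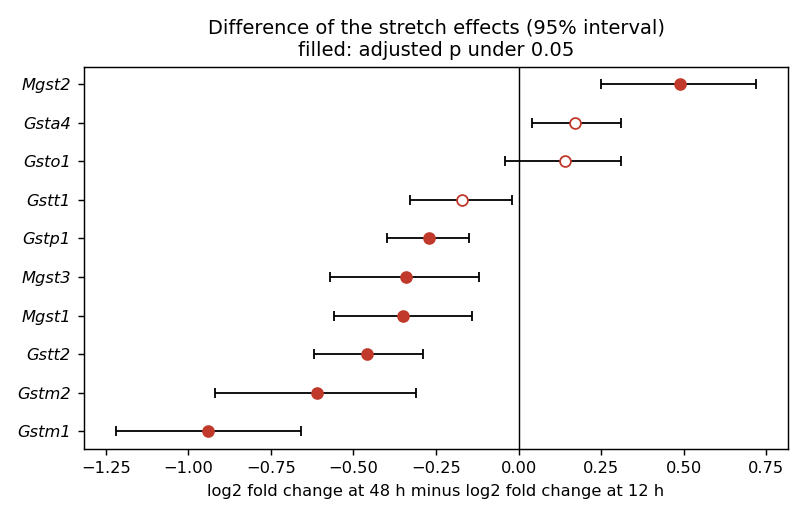
Log2 fold change at 48 h minus log2 fold change at 12 h (x axis) for the 10 genes (y axis), with 95% intervals; filled points passed an adjusted p of 0.05. Mgst2 lies highest at 0.49 and Gstm1 lowest at -0.94.

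One list held the genes that make, reduce and break down glutathione, with those that supply the NADPH its reduction uses. Of 15 measured, 11 were higher and 1 lower at 12 h, and 10 were higher and 1 lower at 48 h, where 33.2% and 32.9% of all probe sets were called in either direction. The lists use 1 probe set per gene, the brightest. On that footing 41.6% of genes were called at 12 h and 43.8% at 48 h. Among probe sets brighter than the median the shares were 56.8% and 51.7%. These shares also belong beside the lists that follow. Among the higher genes at 12 h, Pgd, Idh1, Me1, Taldo1 and Tkt belong to NADPH supply and the pentose phosphate pathway. Chac1 and Chac2, which break glutathione down, were not called at 12 h, and the gene called lower then was Oplah, which recycles a breakdown product. Away from 12 h, Chac1 passed the test upwards after 1, 4 and 24 h of stretch, by 0.34, 0.47 and 0.44 log2 units. Chac2 passed at no time. Ggct, from the same list, was lower after 4 h (log2 -0.21) and higher after 48 h (log2 0.29). Slc7a11, the cystine importer, rose 6.87-fold at 12 h (adjusted p = 4.95e-13), and Gclc and Gclm, the subunits of the rate-limiting enzyme of glutathione synthesis, rose 3.11-fold and 2.28-fold. Gsr, which returns oxidised glutathione to its reduced form, rose 2.48-fold. The list's median log2 fold change was 0.56 at 12 h, beside 0.11 for the 10 transferases. Gclc was already 2.07-fold higher after 1 h (adjusted p = 4.42e-10).

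Of other Nrf2 target enzymes, 14 of 18 were higher and 2 lower at 12 h, where 16.3% of all probe sets were higher and 16.9% lower. Akr1b8, an aldo-keto reductase, rose 6.87-fold, Hmox1, heme oxygenase, 5.66-fold and Cbr3 2.27-fold at that time. Aox1, from the same list, was at 0.477 of its control after 48 h (adjusted p = 2.81e-06). Of Nrf2 and its regulators 6 of 9 were higher at 12 h and 0 lower, among them Maff (2.34-fold, adjusted p = 3.83e-09), while Nfe2l2, which encodes Nrf2, did not pass the test at 12 h (log2 0.00, adjusted p = 0.952). Of 20 peroxidase, peroxiredoxin and thioredoxin genes, 7 were higher and 2 lower at 12 h, with Srxn1, which repairs overoxidised peroxiredoxins, at 3.8-fold.

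Another list held further transferases and related eicosanoid enzymes. Of 16 measured, 2 were higher and 6 lower at 12 h, and 1 was higher and 7 lower at 48 h (16.9% of all probe sets higher and 16.0% lower at 48 h). The 6 lower genes at 12 h included Ptges, a prostaglandin E synthase, and Alox5ap, which activates 5-lipoxygenase and is no transferase. Ptges was among the 7 at 48 h as well. Gstm7, a further mu-class gene, was at 0.349 of its control after 48 h (adjusted p = 1.09e-08) and Gstt3, of the theta class, at 0.448 (adjusted p = 7.51e-07). Of 15 export and mercapturate genes, 3 were higher and 5 lower at 12 h, beside 16.3% higher and 16.9% lower over all probe sets, so the share of higher genes was near the background. Abcc1, a pump that exports glutathione conjugates, rose 1.54-fold at 12 h, whereas Abcc3, a related pump, was at 0.472 of its control after 48 h (adjusted p = 6.53e-07). Dpep1, from the same list, was at 0.643 of its control at 12 h (adjusted p = 2.57e-10). Dpep2 was at 0.488 after 48 h (adjusted p = 9.8e-08). Of 13 aldehyde-metabolising genes 1 was higher and 6 lower at 48 h, and Aldh1a1, which oxidises retinal and other aldehydes, was at 0.41 of its control after 4 h (adjusted p = 3.41e-07).

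**Figure D5:**
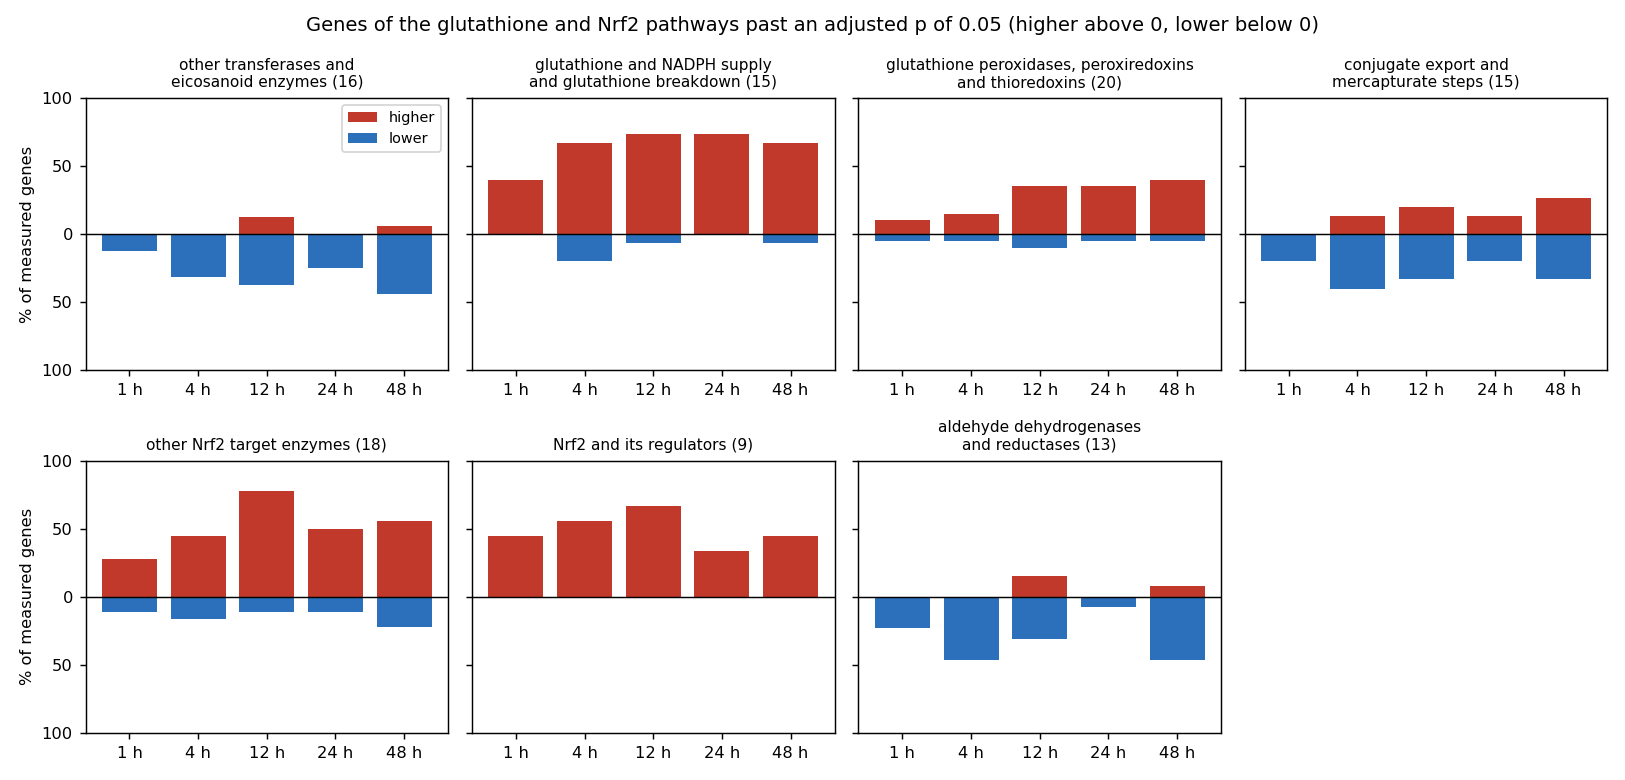
Percent of measured genes in each list (number in brackets) past an adjusted p of 0.05 (y axis) by time of stretch (x axis); genes higher than control are drawn above 0 and lower genes below. The list of glutathione and NADPH supply has 11 genes higher and 1 lower at 12 h, and the list of other transferases and eicosanoid enzymes has 1 higher and 7 lower at 48 h.

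The pattern over arrays was compared with that of 14207 other named genes, by Pearson's r over 35 arrays after each set's mean was taken out. Arrays of a group share their treatment, so these values only describe likeness. Gstp1 was most like Akr1b8 (0.977), Pgd of the pentose phosphate pathway (0.971) and Ptgr1, a prostaglandin reductase (0.966). Mgst2 was most like Tmbim1 (0.968), Polr1d (0.947) and Pak1 (0.943). Gstm2 was most like Slc25a20, the mitochondrial acylcarnitine carrier (0.931), Adamts12 (0.929) and Ech1, an enzyme of fatty acid oxidation (0.90). Within the family over the 15 arrays of set II, Gsta4 ran with Gstp1 and Mgst2 (0.94 each) and Gstm1 with Gstm2 (0.91), while Gstm2 ran against Gsto1 (-0.91). Over the 20 arrays of set I the values of the same pairs were 0.69 for Gsta4 with Gstp1 and with Mgst2, -0.01 for Gstm1 with Gstm2 and -0.48 for Gstm2 with Gsto1.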

How the data were processed

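RNA of 35 samples was measured on Affymetrix whole-genome rat expression arrays, 5 biological replicates per group. The authors scanned the arrays and made the deposited intensity values with Robust Multichip Average (RMA), on a linear scale with 1 value per probe set and array. Here log2 was taken. The control of each set was read from its label suffix, a for set I and b for set II. Normalized values that the study lists for set I were checked against both controls and matched a alone. Values of 427 probe sets that a spreadsheet had turned into dates were read back as intensities, and 0 of them belong to the 10 genes. The 57 array control probe sets among 31099 were dropped.

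In limma 3.58.1 (R 4.3.3) a model with 1 mean per group and moderated variances was fitted to each set, and every stretched group was contrasted with the unstretched group of that set. The difference of the 48 and 12 h effects came from 1 fit of 35 arrays. The Benjamini-Hochberg adjustment ran across 31042 probe sets, and a call needed an adjusted p under 0.05. As an alternative, the same contrasts were tested with the unmoderated variances of a one-way analysis of variance, the method that the study names. This is what ordinary one-way analysis of variance means here, and no F test across groups was run. Further alternatives were other normalizations, filters, weights, the replicate number as a block, and each array left out. The scripts were tested on simulated data. The number of arrays limits the precision, with a median residual SD of 0.114 in set I and 0.12 in set II.

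All 10 genes are described. Values on each array are given for those past an adjusted p of 0.05 and 1.5-fold at any time, and those of Gstm1, Gsta4 and Mgst1 were added after their values were seen. Up to 4 genes per list were picked by size of change, and not all of these are named. The other list genes that appear were added after their values were seen. Genes and lists were chosen with earlier results of these data known. Sequences are from RefSeq (GRCr8). Tables and figures were made with Python 3.11.15, pandas 2.3.3, numpy 2.4.6, Biopython 1.88 and matplotlib 3.10.9.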

Additional observations from a re-analysis of the deposited data

Results flagged for a closer look

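Across 70 groups of 5 arrays, 3 single arrays stood apart from the others of their group by Dixon's ratio, where chance gives about 1 in 20 groups. Gsta4 read 11.83 on replicate 4 of the 12 h group, against a next value of 11.90. Gsto1 read 11.14 on replicate 5 of the 1 h group, above the next at 10.91, and 10.85 on replicate 5 of the 48 h group, below the next at 10.93.

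The stretch effect differed between 48 and 12 h, by limma's test of the difference over all 35 arrays, in 7 genes. The 48 h effect minus the 12 h effect was -0.94 for Gstm1 (adjusted p = 1.06e-05), -0.61 for Gstm2 (adjusted p = 0.00426), -0.46 for Gstt2 (adjusted p = 0.000122), -0.35 for Mgst1 (adjusted p = 0.0172), -0.34 for Mgst3 (adjusted p = 0.0293), -0.27 for Gstp1 (adjusted p = 0.00199) and 0.49 for Mgst2 (adjusted p = 0.00279) on the log2 scale. Gstm1 changed sign between the sets: its 5 stretched arrays lay above every control at 12 h and below every control at 48 h. The mean of its unstretched arrays was 8.52 in set I and 9.71 in set II, and that of Mgst2 was 9.59 and 8.75. These differences were not tested. Time of stretch and set cannot be told apart here.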

How the results depend on the processing

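The 10 genes at 5 times gave 50 values. Under 11 alternative settings 510 of 550 kept their direction and side of the threshold, 15 lost the call, 22 gained one and 3 changed sign. With single arrays left out, 849 of 900 kept both, 40 lost the call, 6 gained one and 5 changed sign. Gained calls included Gstp1 at 1 h and Gsto1 at 12 h, in 5 settings each. Gstm1, Gstt2 and Gsto1 at 24 h also gained calls with all arrays kept. The count at 24 h was 7 with array weights and ranged between 4 and 7 with single arrays left out, 7 being without 24 h replicate 1, where 18.2% of all probe sets were called, against 14.1% to 17.3% without any other 24 h array. The count at 48 h was 6 (4 higher, 2 lower) after median centring of every array, and ordinary analysis of variance ended the 48 h calls of Gstm1, Mgst1 and Mgst3 (adjusted p = 0.0608, 0.0507 and 0.0733). With single arrays left out it ranged between 7 and 10, the 1 h count between 4 and 6, the 4 h count between 7 and 8 and the 12 h count between 4 and 6. Between 4 and 1 h the count was 3 with ordinary analysis of variance, without dim probe sets, with 1 probe set per gene or with a variance trend, and 2 with the mean of a gene's probe sets, and it ranged between 0 and 2 with single arrays left out. Between 48 and 24 h it was 1 with ordinary analysis of variance and between 0 and 4 with single arrays left out, 0 being without 24 h replicates 1 or 3 or 48 h replicate 3. The values that changed sign were all near 0 and not called: Mgst3 at 1 h (0.01 with centring), Mgst3 at 24 h (-0.01 with quantile normalization, -0.02 with array weights, and -0.11 to 0.05 with single arrays left out, below 0 without control replicate 4 or 24 h replicates 3 or 5), Gstt2 at 12 h (-0.02 to 0.04, below 0 without control replicate 3) and Mgst1 at 24 h (-0.02 to 0.12, below 0 without replicate 1). Calls that single arrays ended were Gstm2 at 1 h (without control replicates 1, 2 or 5 or stretched replicates 2, 4 or 5, adjusted p up to 0.0913), Gstt1 at 1 h (control 1, 4 or 5, stretched 1, 2, 4 or 5, up to 0.119), Gstm2 at 12 h (control 1, 2 or 5, stretched 1 or 3, up to 0.0688), and at 48 h Gstm1 (control 1 to 4, stretched 1 or 4, up to 0.0819), Mgst1 (control 1, 2 or 4, stretched 1, 2 or 5, up to 0.079) and Mgst3 (control 1, 2, 3 or 5, 24 h replicates 2, 3 or 5, 48 h replicates 2, 3 or 5, up to 0.113). Deviations of same-numbered arrays from their group means had a median correlation of -0.00276 in set I and -0.0415 in set II. The correlation was over 0.1 in 6 of 30 and 6 of 15 pairs and reached 0.339 and 0.539. In all, 5 of 20 and 5 of 15 arrays were closest to their own number. Whether same-numbered arrays shared a culture cannot be told from these values, and the labels do not say. With the replicate number as a block, the counts were 5, 7, 6, 4 and 9 at 1, 4, 12, 24 and 48 h. The cause of these shifts was not tested.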
